A study of Delphinium anthriscifolium with 89 samples.

Results

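Transcripts of the dorsal spurred petals were compared with those of the dorsal spurred sepals in flowers of *Delphinium anthriscifolium*, a larkspur, at floral stage S16, the latest stage sampled. The comparison rests on 6 of the 89 RNA-sequencing libraries of the series, 3 of each organ, taken by their sample titles. Plants of all groups used here carry the genotype label WT and no treatment. The study sampled petals and sepals of several positions, stamens and carpels at the stages S9, S10, S12 and S16, together with leaves and bracts, and it also holds a silencing experiment that was not used here. Beside the 6 libraries, use was made of 9 further S16 libraries, 3 each of lateral non-spurred petals, lateral non-spurred sepals and ventral non-spurred sepals. Dorsal petals and dorsal sepals at S9 (2 libraries of each), S10 and S12 (3 of each) gave the earlier stages. The labels state neither how many flowers went into a library, nor whether replicates came from separate plants, nor whether a spur was taken with its blade. The p-values therefore cover only how much these libraries vary, and part of that variation may be technical.

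In a larkspur flower the sepals form the showy outer whorl, and the dorsal sepal is drawn out into a hollow spur. The dorsal petals lie inside it and bear spurs of their own, which reach into the sepal spur and hold the nectar, while the lateral petals are blades without a spur. In flowering plants the identity of the 2 whorls is set by combinations of MADS-box transcription factors, and in the buttercup family a petal-specific paralog of APETALA3 is tied to petal identity. The count files pair no gene name with a feature ID, so features are named by ID, few of them, and no function is given to any.

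The 6 libraries held between 6776442 and 22100119 estimated counts and between 17084 and 23141 detected features, out of 32115 features in the table. Dorsal petals had totals of 18913319, 22100119 and 11606635, against 7336343, 9027793 and 6776442 in dorsal sepals, so every petal library was deeper than every sepal library. Replicate 3 stood apart in each of the 5 perianth groups at S16. Over these 15 libraries replicates 1 and 2 detected 20844 to 23141 features and replicate 3 detected 9926 to 18190. Log2 CPM values (CPM express counts relative to the library total, here adjusted with edgeR's TMM factors) correlated at 0.96 to 0.98 between replicates 1 and 2 of a group and at 0.71 to 0.87 between either of them and replicate 3. Counts of calls in the comparisons at S16 are given with and without replicate 3 of all S16 groups.

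Features missing from replicate 3 were mostly of low level. In dorsal petals, 804 of the 16836 features with at least 1 CPM in both replicates 1 and 2 had no count in replicate 3 (4.78%), and in dorsal sepals 1330 of 16571 (8.03%). At 10 CPM or more these numbers were 6 of 10129 in dorsal petals and 39 of 10060 in dorsal sepals, and at 100 CPM or more they were 0 in both organs. The loss thus fell on weakly counted features, and its share was larger in the sepal library, the shallower of the pair. Dorsal petal replicate 3, with 11606635 counts, detected 18190 features. Dorsal sepal replicates 1 and 2 had fewer counts, 7336343 and 9027793, and detected more features, 21204 and 21606. The cause of the low detection in replicate 3 was not tested.

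The organ labels were checked with feature lists made from other libraries. From 24 dorsal and lateral petal and sepal libraries at S10 and S12, 96 features were at least 4-fold higher in petals at both stages and 761 were at least 4-fold lower in petals (edgeR quasi-likelihood adjusted p under 0.05 at each stage). The petal-high list took 0.413, 0.368 and 0.418% of the counts in the S16 dorsal petal libraries, against 0.0292, 0.019 and 0.032% in the dorsal sepal libraries. The sepal-high list took 6.09, 5.44 and 5.71% of the counts in dorsal petals and 15.8, 15.6 and 15.6% in dorsal sepals. Neither list overlapped between the organs, and replicate 3 of each organ lay with its own label on both.

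Dorsal petals and dorsal sepals differed in 1234 of 19128 features tested, which is 6.45% of them. Calls required a Benjamini-Hochberg adjusted p under 0.05 from edgeR's quasi-likelihood test, fitted over the 15 perianth libraries of S16. The calls comprised 438 features higher in petals (2.29%) and 796 lower in petals (4.16%). By estimate, 420 of the 438 and 764 of the 796 differed by 2-fold or more, 266 and 466 by 4-fold or more, and 130 and 130 by 16-fold or more. The median log2 fold change was 2.36 for the features higher in petals and -2.29 for those lower in petals. Among them 25 and 9 features had no count in one of the organs, and with these set at the bound given by a floor of 3 counts over the group the medians were 2.36 and -2.29 again and 129 and 130 features reached 16-fold. In these whole-organ libraries fewer cells of a type and less RNA per cell cannot be told apart.

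The number of calls depended on replicate 3. Without it the same test called 6889 of 19031 features (36.2%), 3202 higher in petals (16.8%) and 3687 lower (19.4%), and all 1234 calls made with it were among them in the same direction. The biological coefficient of variation, edgeR's common measure of spread between replicates, was 0.74 with replicate 3 and 0.21 without it. Libraries of the same replicate number deviated together from their group means, and a fit with that number as a blocking term gave 2444 calls (1082 higher and 1362 lower in petals), of which 1227 were among the 1234. The differences called without replicate 3 were smaller in the median, at 1.24 on the log2 scale for features higher in petals and 1.54 in size for those lower in petals. Of the 3202 higher, 1983 reached 2-fold, 978 reached 4-fold and 315 reached 16-fold, and of the 3687 lower, 2619, 1369 and 314 did. The share of calls that were higher in petals was 35.5% in the first fit, 44.3% with the block and 46.5% without replicate 3. Leaving out 1 of the 6 libraries at a time gave 750 to 973 calls, with 792 without dorsal petal replicate 1 and 750 without dorsal petal replicate 2.

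The replicate 3 pair could also be read on its own against calls made from replicates 1 and 2 of the same organs. Those 4 libraries called 2559 features higher in petals, of which 2455 had a count in either replicate 3 library. Of these 2189 were higher in petals in replicate 3 as well (89.2%), where 52.9% of all features tested were. Of 3106 features lower in petals, 2995 had a count and 2721 were again lower (90.9%), against 47.1% of all features tested. At a mean of 100 CPM or more the numbers were 458 of 475 higher (96.4%) and 517 of 537 lower (96.3%). The median log2 difference was 1.52 in replicates 1 and 2 and 1.49 in replicate 3 for the higher features, and -1.72 and -1.44 for the lower ones.

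**Figure D1:**
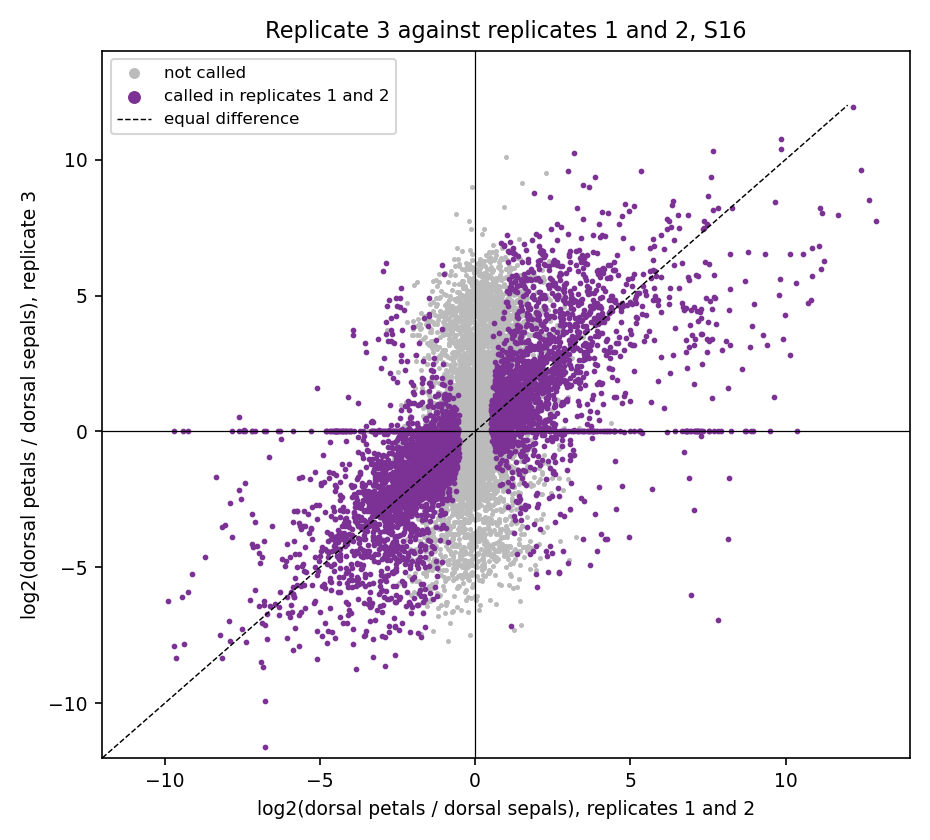
Log2 difference between dorsal petals and dorsal sepals at S16 for each feature, in replicates 1 and 2 (x axis, edgeR estimate of 4 libraries) and in replicate 3 (y axis, a difference of log2 CPM with a prior count of 2). Purple points were called in replicates 1 and 2, the dashed line marks equal differences, and points at 0 on the y axis include features without counts in either replicate 3 library; 2189 of 2455 features called higher and 2721 of 2995 called lower lay on the same side in replicate 3.

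Features called higher in petals took 16.4, 15.2 and 15.1% of the counts in the 3 dorsal petal libraries, against 3.04, 2.84 and 2.82% in the dorsal sepal libraries. Features called lower in petals took 5.17, 4.52 and 5.62% in dorsal petals and 21.6, 21 and 22.9% in dorsal sepals. These shares are a description, since the same libraries chose the features. The share of features called was larger at higher levels, at 0.288% below a mean of 1 CPM, 1.16% between 1 and 10 CPM, 7.1% between 10 and 100 CPM and 24.9% at 100 CPM or more. Without replicate 3 these shares were 13.6, 26.1, 40.1 and 61.1%.

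The feature with the largest estimated difference was DN36726_c0_g1_i1|m.18272. It was at 293, 260 and 326 CPM in the dorsal petal libraries and had no count in any of the 3 dorsal sepal libraries. The organs did not overlap, and over the groups the petal level was at least 2110-fold higher, with an adjusted p of 0.000694 from edgeR's quasi-likelihood test. Lateral petals had 61.6, 66.5 and 96.2 CPM, against 0, 0.0987 and 0 CPM in lateral sepals. Ventral sepals had 0.103, 0 and 8.13 CPM, with the highest value in replicate 3, the library of fewest detected features. The same feature was present at S12, with 18134 counts in dorsal petals and 1 in dorsal sepals, a ratio of 7590 whose 95% counting interval ran from 1360 to 3e+05.

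DN46620_c1_g5_i1|m.86020 had the highest mean count among the features higher in petals, a value not corrected for length. Its level was 12500, 9200 and 6080 CPM in dorsal petals and 19, 6.44 and 17.1 CPM in dorsal sepals. No petal library came near a sepal library, and the log2 fold change was 9.35 (SE 1.29, edgeR adjusted p = 0.000329). Lateral petals had 107, 82.6 and 67.4 CPM, below every dorsal petal library and above every lateral sepal library, which had 9.88, 9.48 and 1.95 CPM. The petal-sepal difference at the lateral position was 3.57 on the log2 scale (SE 1, edgeR adjusted p = 0.0643), and the test of dorsal against lateral differences gave 5.78 (SE 1.38, edgeR adjusted p = 0.0884; without replicate 3, 6.46 and 0.000653). In ventral sepals it had 5.44 and 1.12 CPM in replicates 1 and 2 and 58.9 CPM in replicate 3.

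Among features lower in petals, DN40134_c0_g1_i2|m.27159 had the largest estimated difference. It was at 0.0542, 0 and 0 CPM in dorsal petals, a single count in all, and at 22.6, 30.5 and 37.3 CPM in dorsal sepals. The dorsal sepals were above the dorsal petals by a factor of 1600 (95% counting interval 286 to 63300), and the log2 fold change was -9.92 (SE 2.04, edgeR adjusted p = 0.00674). Lateral petals had 2.34, 0.0903 and 0 CPM, against 15.9, 13.9 and 24.1 CPM in lateral sepals. Ventral sepals had 15.1 and 14.7 CPM in replicates 1 and 2 and no count in replicate 3. At S12 the feature had 10 counts in dorsal petals and 7683 in dorsal sepals.

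DN47354_c0_g1_i2|m.96650 had the highest mean count among the features lower in petals. It stood at 1620, 1130 and 2180 CPM in dorsal petals and at 22500, 24300 and 35100 CPM in dorsal sepals, without overlap. The log2 fold change was -4.06 (SE 0.46, edgeR adjusted p = 5.54e-05). At the lateral position petals had 8280, 7210 and 17800 CPM and sepals 5760, 6930 and 15600 CPM, which overlapped, and differed by 0.24 on the log2 scale (SE 0.4, edgeR adjusted p = 1). The dorsal and lateral differences were themselves different, by -4.29 on the log2 scale (SE 0.6, edgeR adjusted p = 0.00214). This feature was thus lowest in the dorsal petals and highest in the dorsal sepals, with the other 3 perianth groups between them. Calls of these 4 features between dorsal petals and dorsal sepals held under each of 16 alternatives, with adjusted p between 1.13e-21 and 0.0476. The rule that named them required no overlap and a call without replicate 3, so those outcomes were fixed by the choice.

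**Figure D2:**
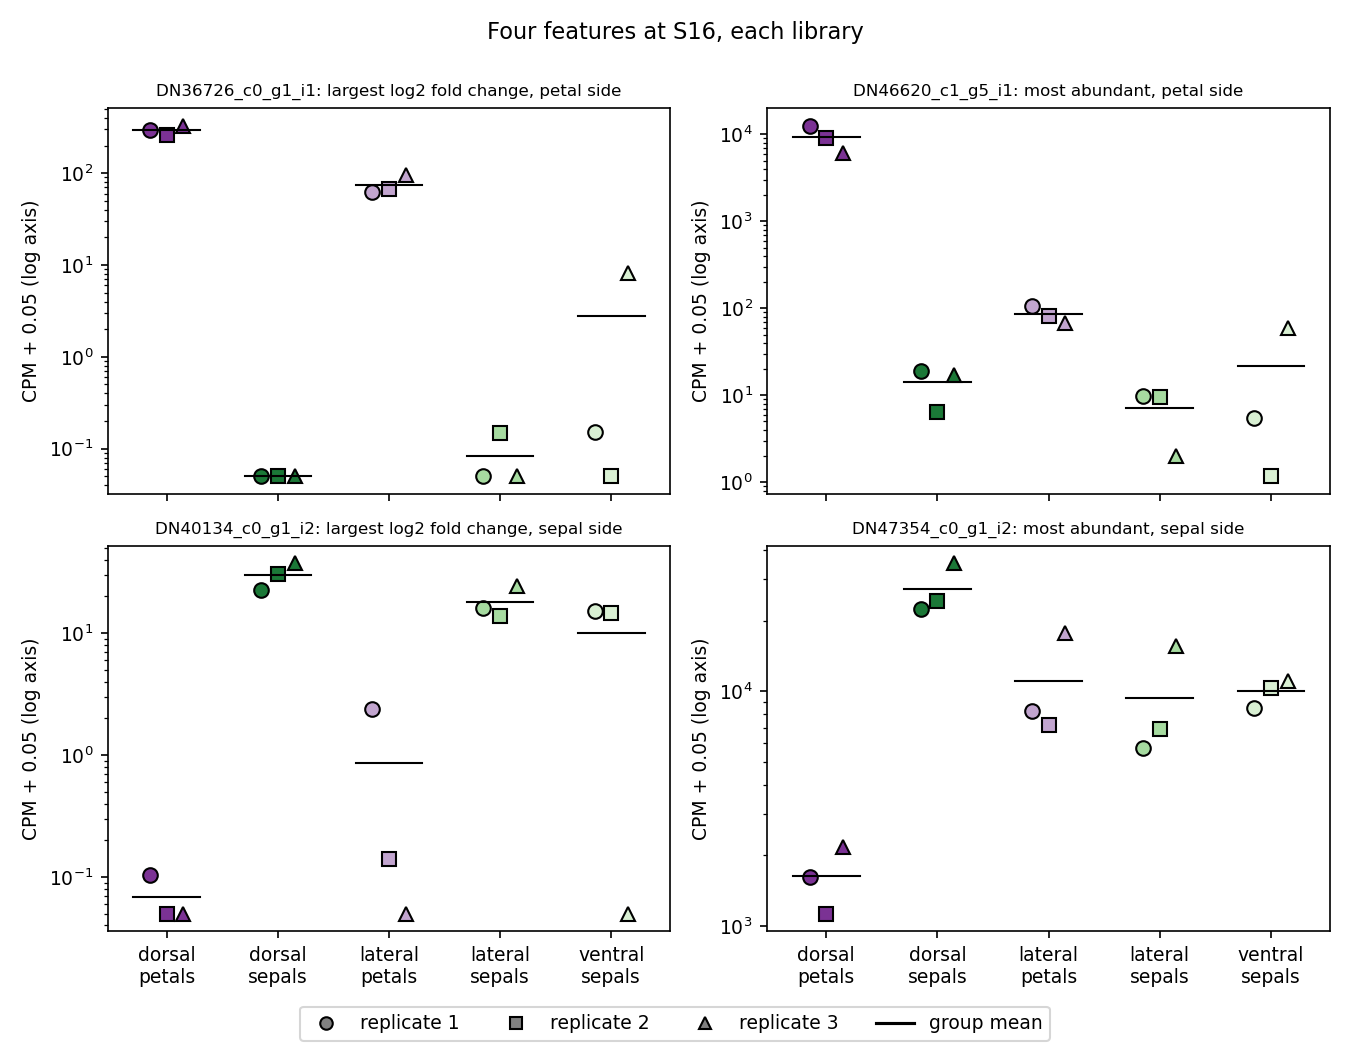
CPM plus 0.05 (log axis) of the 4 features described, in each of the 15 perianth libraries at S16; circles, squares and triangles are replicates 1, 2 and 3, and lines are group means. Dorsal petals do not overlap dorsal sepals in any panel, which the rule that chose the features required. In the lower right panel the lateral petals (7210 to 17800 CPM) overlap the lateral sepals (5760 to 15600 CPM).

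A small set of features was present in dorsal petals and not detected in dorsal sepals. It held 11 features with at least 10 CPM in each dorsal petal library and no count in any dorsal sepal library, and all 11 were called. Their mean levels in dorsal petals ran from 14.3 to 293 CPM with a median of 29.4 CPM, while 0 counts in the dorsal sepals allow up to 0.13 CPM. Of the 11, 5 reached 1 CPM in lateral petals, 1 in lateral sepals and 1 in ventral sepals. In stamens 9 reached it, in carpels 4, in leaves 1 and in bracts 1. The share of all features tested that reach 1 CPM in each organ was not counted, so these numbers single out no organ. In the other direction 0 features met the same rule, and over replicates 1 and 2 alone the numbers were 14 and 0. The petal libraries were deeper, with 52620073 counts over the 3 dorsal petal libraries and 23140578 over the 3 dorsal sepal libraries, so a count of 0 was less likely in petals.

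Levels in the other perianth organs placed the called features. Features higher in dorsal petals had a median level of 7.23 in dorsal petals on the log2(CPM + 0.5) scale, 6.09 in lateral petals, 4.84 in dorsal sepals, 4.82 in lateral sepals and 4.77 in ventral sepals. The 3 sepal groups thus had similar medians, and the lateral petals lay between them and the dorsal petals. Features lower in dorsal petals had a median of 4.41 in dorsal petals, 5.09 in lateral petals, 6.72 in dorsal sepals, 6.49 in lateral sepals and 6.41 in ventral sepals. Of the 438 features higher in dorsal petals, 362 had their highest S16 mean in dorsal petals (82.6%; 30.5% of all features tested) and the other 76 in lateral petals. Of the 796 lower in dorsal petals, 377 were highest in dorsal sepals (47.4%; 19.9% of all features tested), 201 in lateral sepals, 200 in ventral sepals and 18 in lateral petals. Choosing features by the dorsal difference favours a highest mean in a dorsal group, so these shares are a description.

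The same organ comparison at the lateral position used other libraries. Between lateral petals and lateral sepals at S16 edgeR called 805 features (4.21%), 234 higher (1.22%) and 571 lower (2.99%) in lateral petals. Of the 438 features higher in dorsal petals, 368 had the same sign laterally (84%; 51.2% of all features tested), 143 were called in the same direction and 5 in the opposite one. Of the 796 lower in dorsal petals, 712 had the same sign (89.4%; 48.7% of all features tested), 373 were called alike and 6 oppositely. The median lateral log2 difference was 1.09 for the first group and -1.43 for the second, against 0.02 over all features. Since the features were chosen on the dorsal difference, a smaller lateral median is no test that the positions differ. Dorsal and lateral libraries of one replicate number also deviated together, so the lateral libraries are not wholly separate evidence. Without replicate 3 the lateral comparison called 4390 features (23.1%). Of the features then called between dorsal petals and dorsal sepals and tested in both fits, 2576 of 3171 higher had the same sign laterally (81.2%; 49.8% of all features tested) and 3155 of 3673 lower (85.9%; 50.1%), with lateral medians of 0.48 and -0.87. Laterally 1071 (33.8%, against 9.12% of all features tested) and 1950 (53.1%, against 14%) of them were called in the same direction, and 98 and 104 in the opposite one. With the block the lateral comparison called 1548, and without lateral petal replicate 1 or 2 it called 505 and 519.

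Whether the petal-sepal difference changed with position was tested directly, as dorsal petals minus dorsal sepals less lateral petals minus lateral sepals. This called 136 features (0.711%), 56 with a higher difference at the dorsal position (0.293%) and 80 with a lower one (0.418%). For the 56, the median log2 difference was 2.56 at the dorsal position and -1.08 at the lateral position, with 39 called higher in dorsal petals and 20 called lower in lateral petals. For the 80, the medians were -3.15 at the dorsal and 0.66 at the lateral position, and 78 were called lower in dorsal petals. The dorsal and lateral estimates had opposite signs in 36 of the 56 and in 59 of the 80, and in 5 and 6 of them both differences were called. Choosing features by the gap between the positions favours opposite signs, so the sign counts are a description. Dorsal petals held the highest S16 mean of 50 of the 56 (89.3%; 30.5% of all features tested), and dorsal sepals that of 56 of the 80 (70%; 19.9% of all features tested), an outcome that selection on the dorsal difference favours. The test without replicate 3 called 1652 features (8.68%), 135 of the 136 among them, with 855 higher (4.49%) and 797 lower (4.19%) at the dorsal position. Opposite signs then occurred in 433 of the 855 and 401 of the 797, with both differences called in 98 and 104 of them, and the medians were 1.12 dorsally and -0.6 laterally for the 855, and -1.92 and 0.29 for the 797. The block fit called 424 features, with all 136 among them. Without dorsal sepal replicate 1 it called 89, and without lateral sepal replicate 1 it called 90.

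**Figure D3:**
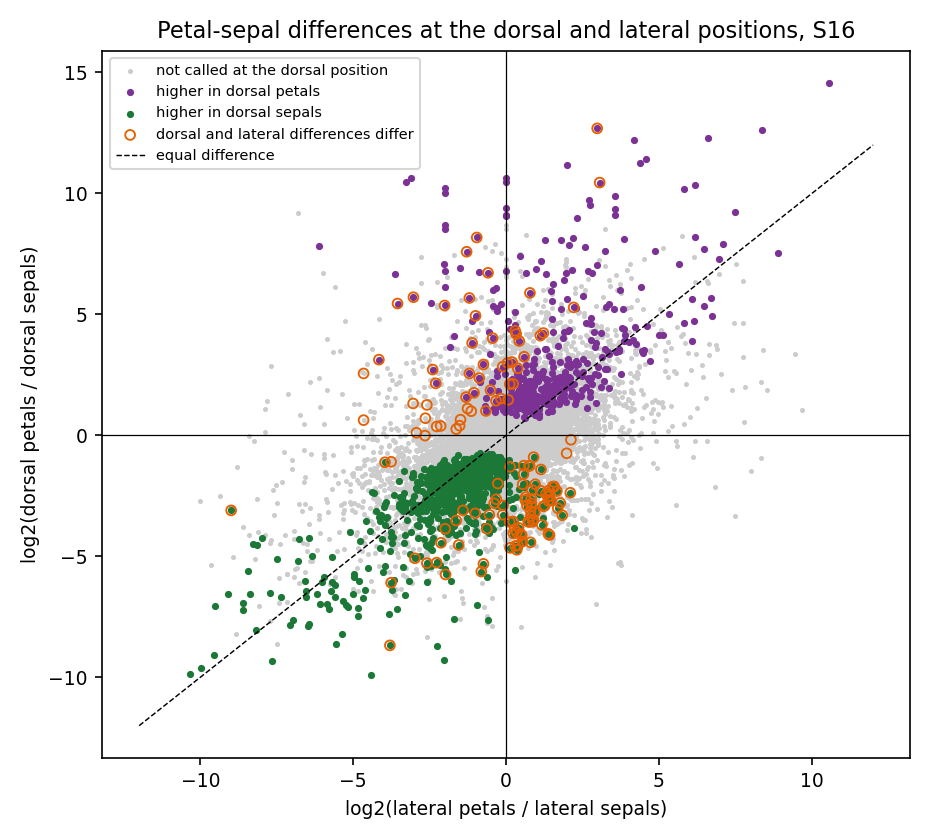
Log2 difference of each feature at S16 between lateral petals and lateral sepals (x axis) and between dorsal petals and dorsal sepals (y axis). Purple points were called higher in dorsal petals (438), green points higher in dorsal sepals (796), orange rings mark the 136 features whose dorsal and lateral differences differed, and the dashed line marks equal differences. Many ringed green points lie right of 0, where the lateral difference has the other sign, an outcome that the choice of ringed features favours.

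DN39758_c0_g2_i1|m.25678 had the largest positive difference between positions. It was at 68.6, 90.8 and 47.6 CPM in dorsal petals and at 0.572, 0.115 and 0 CPM in dorsal sepals. Lateral petals had 0.292, 0.181 and 0 CPM, against 0.775, 0.197 and 0 CPM in lateral sepals, and ventral sepals had 0.41, 0.101 and 0 CPM. All 12 libraries outside the dorsal petals were below 1 CPM. The interaction was 9.14 on the log2 scale (SE 1.76, edgeR adjusted p = 0.023; without replicate 3, 8.93 and 0.00107). The call was lost on leaving out single libraries, with edgeR adjusted p = 0.0845, 0.123 and 0.0557 without dorsal petal replicates 1, 2 and 3, 0.0846 and 0.0614 without dorsal sepal replicates 2 and 3, 0.055 and 0.0673 without lateral petal replicates 1 and 2, and 0.3 without lateral sepal replicate 1.

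DN48433_c1_g1_i10|m.116553 had the largest negative one. Dorsal petals had 17.8, 7.23 and 42.6 CPM and dorsal sepals 380, 214 and 579 CPM, without overlap. Lateral petals had 93.2, 77 and 405 CPM and lateral sepals 53.2, 44.4 and 118 CPM, which overlapped. Group means were 22.5 ± 18.2 CPM in dorsal petals and 391 ± 183 CPM in dorsal sepals, against 192 ± 185 CPM in lateral petals and 71.8 ± 40.1 CPM in lateral sepals (SD, n = 3 each), so the order of the organs differed between positions in the means. The interaction was -5.54 (SE 1.04, edgeR adjusted p = 0.0187), and the lateral difference alone was 1.42 (SE 0.7, edgeR adjusted p = 0.439). The interaction call was lost without dorsal petal replicate 1 (edgeR adjusted p = 0.0697), dorsal sepal replicate 3 (0.051), or lateral sepal replicate 1 (0.0791) or 2 (0.0722). Its assembly gene holds 6 features, between which reads may have been divided by estimation.

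The same 2 organs were next compared at earlier stages. In a fit of the 22 dorsal petal and dorsal sepal libraries from S9 to S16, edgeR called 1693 features at S10 (7.87%), 312 higher in petals (1.45%) and 1381 lower (6.42%), and 2221 at S12 (10.3%), 700 higher (3.25%) and 1521 lower (7.07%). The same fit called 3045 at S16 (14.2%), 1404 higher (6.53%) and 1641 lower (7.63%), more than the 1234 of the fit of S16 libraries alone, so counts at the 3 stages compare only within this fit. Without replicate 3 of S16 it called 2222 at S10 (10.5%), 2981 at S12 (14%) and 2455 at S16 (11.5%), so whether S16 or S12 had more calls turned with that replicate. Of the 438 features higher in petals at S16, 47 were called higher at S10 and 86 at S12, while 38 and 29 were called lower there. Of the 796 lower in petals at S16, 433 were called lower at S10 (54.4%) and 518 at S12 (65.1%), while 8 and 6 were called higher. The medians of the 438 were 0.13 at S10, 0.53 at S12 and 2.36 at S16, and those of the 796 were -1.61, -1.9 and -2.29. Over all the features tested at S16 the medians were 0.03, 0.07 and 0.1. Choosing features by the S16 difference favours the largest median at S16, so the order of the stages is a description. With features at 0 in one organ set at their bound and those at or under 3 counts in both organs left out, the medians of the 438 were 0.16 at S10, 0.48 at S12 and 1.13 at the lateral position, and those of the 796 kept their values. Without replicate 3, 2.66% of all features tested were called higher at S10 and 5.39% at S12, while 7.79 and 8.64% were called lower. Of 3155 features called higher at S16 without replicate 3 and tested here, 202 were called higher at S10 (6.4%) and 421 at S12 (13.3%), while 112 and 104 were called lower there. Of 3659 called lower, 1095 were called lower at S10 (29.9%) and 1309 at S12 (35.8%), while 62 and 63 were called higher. Their medians were 0.19 at S10 and 0.37 at S12 for the 3155, and -0.73 and -0.89 for the 3659. A test of whether the petal-side and sepal-side features differ in how often they were called earlier was not run.

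Called at S10, S12 and S16 in one direction were 35 of the 438 features higher and 396 of the 796 lower in petals. Of these 22 and 197 were also called at the lateral position. Called at S16 and at neither earlier stage were 294 of the 438 and 231 of the 796. The S16 calls are those of the S16 fit, and the earlier ones those of the other fit. Over all features tested, 1.45% were called higher and 6.42% lower at S10, and 3.25% and 7.07% at S12. Joint shares over all features and counts without replicate 3 were not made, so these counts are a description. Peak levels fell mostly at S16. Of the features higher in petals at S16, 386 of 438 had their highest dorsal petal mean at S16 (88.1%), where 44% of all features tested had theirs. Of the features lower in petals, 569 of 796 had their highest dorsal sepal mean at S16 (71.5%), against 37.7% of all features tested. Choosing features that are high in an organ at S16 favours a peak at S16, so these shares are a description. Without dorsal petal S12 replicate 2 the S12 comparison called 1421 features, and without dorsal petal S10 replicate 3 the S10 comparison called 1104.

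**Figure D4:**
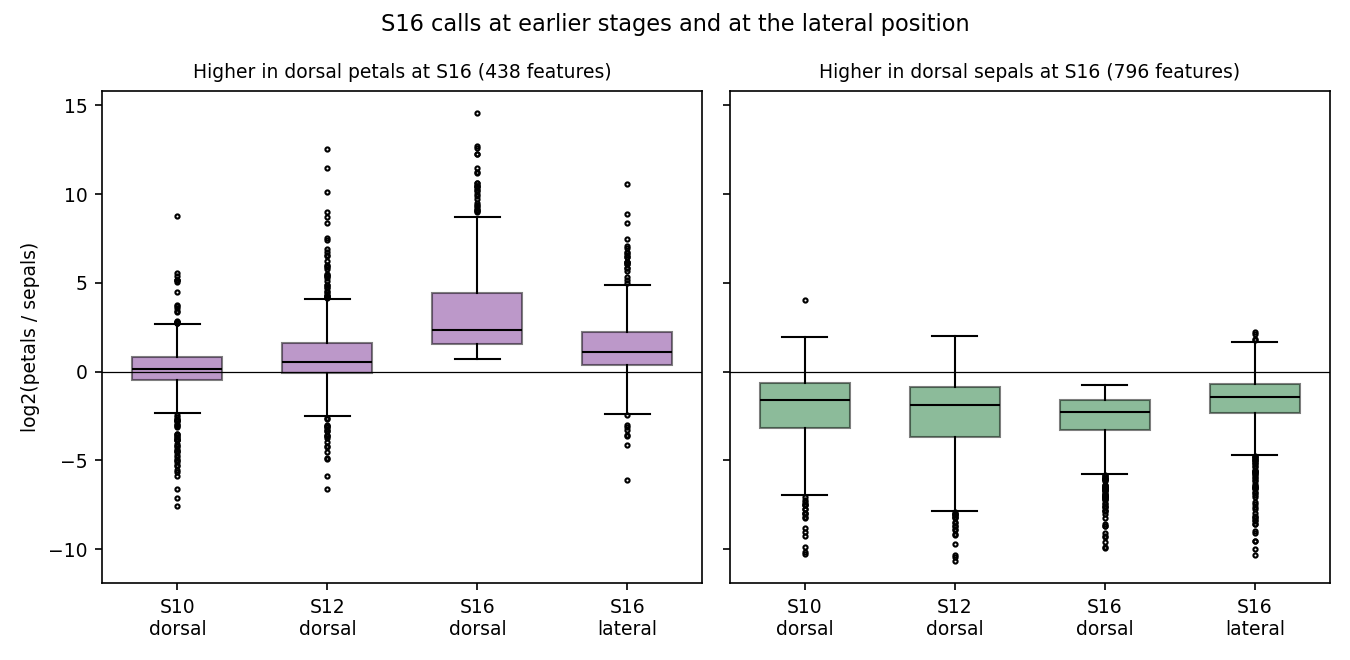
Log2 difference between petals and sepals at S10, S12 and S16 at the dorsal position and at S16 at the lateral position, for the 438 features higher in dorsal petals (left) and the 796 higher in dorsal sepals at S16 (right). Boxes span the quartiles with the median line, whiskers reach 1.5 box lengths, and points lie beyond. The left medians are 0.13, 0.53, 2.36 and 1.09 and the right ones -1.61, -1.9, -2.29 and -1.43. Choosing features by the S16 dorsal difference favours the largest medians there.

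The change of the petal-sepal difference from S12 to S16 was tested as an interaction in the same fit. It called 877 of 21517 features (4.08%), 511 with a higher difference at S16 (2.37%) and 366 with a lower one (1.7%). For the 511, the median log2 difference was -1.58 at S12 and 1.47 at S16, with a median step from S12 to S16 of 3.12 in dorsal petals and 0.22 in dorsal sepals. For the 366, the medians were 0.65 at S12 and -2.3 at S16, with steps of -3.43 in dorsal petals and -0.46 in dorsal sepals. With features at 0 in one group at their bound, the largest move among these medians was -2.28 for the 366 at S16. The larger step thus lay in the petals in both directions. Over all features tested the median steps were 0.01 in petals and -0.04 in sepals. Choosing features by the gap between the stages favours opposite signs of the S12 and S16 medians, so those signs are a description. Between S12 and S16 edgeR called 6544 features in dorsal petals (30.4%), 3341 rising (15.5%) and 3203 falling (14.9%), and 4585 in dorsal sepals (21.3%), 2086 rising (9.69%) and 2499 falling (11.6%). Among the 511, 432 were called rising and 19 falling in petals, and 146 rising and 130 falling in sepals. Among the 366, 4 were called rising and 318 falling in petals, and 67 rising and 139 falling in sepals.

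Without replicate 3 of S16 the stage test called 895 features (4.21%), 670 of them among the 877, with 511 higher (2.4%) and 384 lower (1.81%) at S16. Their median steps were 2.72 in dorsal petals and -0.04 in dorsal sepals for the 511, and -3.26 and -0.73 for the 384. With the replicate number as a block within each stage, an alternative chosen after seeing the data, it called 1323, of which 810 were among the 877. Without dorsal petal S12 replicate 2 or 3 it called 579 and 584.

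DN32998_c0_g1_i1|m.12218 had the largest positive change between S12 and S16. In dorsal petals it had no count at S9 and S10, values of 0, 0.0459 and 0 CPM at S12, and 20.1, 21.1 and 19.2 CPM at S16. In dorsal sepals it had no count at S9, values of 0.803, 0 and 0.323 CPM at S10 and 0.124, 0.0922 and 0 CPM at S12, and no count at S16. It was thus detected above 1 CPM in the S16 petal libraries alone among these 22, at least 125-fold above the S16 sepals, and it had no count in lateral petals or lateral sepals at S16. The fitted interaction was 12.49 (SE 2.7, edgeR adjusted p = 0.0153), a value that depends on the prior count and is no bound. The call was lost without dorsal sepal S12 replicate 1 (edgeR adjusted p = 0.093) or 2 (0.0863), with the replicate block within each stage (0.071) and with libraries thinned to the smallest total (1).

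DN38501_c0_g1_i1|m.22183 changed most in the other direction. Dorsal petals had 45.5 and 35.3 CPM at S9, 29.3, 30.4 and 25.6 CPM at S10, 5.5, 19.3 and 18.1 CPM at S12, and no count at S16. Dorsal sepals had no count at S9, 0, 1.08 and 0.861 CPM at S10, 0, 0.277 and 0 CPM at S12, and 0.346, 0.276 and 0 CPM at S16. Petals lay above sepals without overlap at S9, S10 and S12, and at S16 there were 0 counts in petals and 4 in sepals. At S12 the 857 counts in petals and 3 in sepals differed by a factor of 120, with a 95% counting interval of 40.8 to 581. The fitted interaction was -11.15 (SE 2.13, edgeR adjusted p = 0.00449), again no bound. The call held in 20 of 20 alternatives, among them the fit without replicate 3, which the naming rule required.

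Lists of features high in other organs described what the petal and sepal sides share with them. Stamen, carpel, leaf and bract lists held features at least 4-fold above each of the other 3 organs in 30 libraries that include no petal or sepal. Of the 66 bract-high features tested, 5 were higher in dorsal petals at S16 (7.58%, against 2.29% of all features tested) and 26 were lower (39.4%, against 4.16%), with a median log2 difference of -1.52 against 0.1 over all features. Without replicate 3 the bract-high counts were 8 higher (12.1%, against 16.8% of all features tested) and 42 lower (63.6%, against 19.4%) with a median of -1.54. At the lateral position 11 were higher (16.7%, against 1.22%) and 11 lower (16.7%, against 2.99%), with a median of -0.33. Between dorsal petals and dorsal sepals at S12 0 were higher (against 3.25% of all features tested) and 50 lower (70.4%, against 7.07%) by edgeR (0 and 56 at an unadjusted p under 0.05, 0 and 54 by DESeq2), with a median of -3.01 (-3.03 with features at 0 in one organ at their bound). The bract-high list took 2.01, 1.89 and 1.56% of the counts in dorsal petals and 3.06, 3.14 and 1.98% in dorsal sepals, which overlapped, with 59 to 69 of its 74 members detected in a petal library and 67 to 70 in a sepal library.

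Of the 516 stamen-high features tested, 56 were higher (10.9%, against 2.29% of all features tested) and 18 lower (3.49%, against 4.16%) in dorsal petals, the lower share being near that of all features. The median log2 difference was -0.33 with all replicates and 0.75 without replicate 3 (0.71 with features at 0 in one organ at their bound), where 188 were called higher (38.1%, against 16.8% of all features tested) and 89 lower (18%, against 19.4%). With all replicates 224 of the 516 had a positive and 292 a negative estimate. Without replicate 3 these were 318 and 176 of 494. The median thus turned with replicate 3, while more members of this list were called higher than lower in both fits. The size of that lean depended on the list rule. A list from S16 stamens and carpels with leaves and bracts had 1051 features tested and a median of -0.42. Of these, 77 were called higher and 69 lower. At 8-fold the calls were 34 higher and 9 lower of 313. The share of calls that were higher in petals was 75.7% for the first list, 52.7% for the S16 list and 79.1% at 8-fold. Over all features tested it was 35.5%. The stamen-high list took 5.84, 5.17 and 7.22% of the counts in dorsal petals, against 4.98, 3.76 and 5.64% in dorsal sepals, which overlapped. Its 709 members had a count in 615, 614 and 492 cases in the petal libraries and in 526, 538 and 486 in the sepal libraries. Stamen libraries at S16 gave the stamen-high list 8.14, 8.38 and 22.6%. Lateral petals gave it 8.54, 7.99 and 7.83%, above every dorsal petal library, and lateral sepals 5.38, 4.52 and 5.81%. At the lateral position 28 members were called higher in petals (5.43%, against 1.22% of all features tested) and 17 lower (3.29%, against 2.99%). Whether stamen transcripts contributed to the petal libraries was not tested.

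Of 94 carpel-high features tested, 2 were higher (2.13%, against 2.29% of all features tested) and 2 lower (2.13%, against 4.16%) in dorsal petals with a median of 0.15. Without replicate 3 these were 19 (20.2%, against 16.8%) and 18 (19.1%, against 19.4%) with a median of 0.25. Of 25 leaf-high features, edgeR called 0 higher and 1 lower (4%, against 4.16% of all features tested) with a median of -0.18 (3 and 3 at an unadjusted p under 0.05, 1 and 3 by DESeq2), and without replicate 3 these were 4 (16%, against 16.8%) and 6 (24%, against 19.4%) with a median of -0.33. These shares are near those of all features, so the counts are no result about either list. Carpel-high features took 0.149 to 0.235% of the counts in dorsal petals and 0.142 to 0.17% in dorsal sepals, and leaf-high features took 0.065 to 0.0908% in dorsal petals and 0.0596 to 0.0692% in dorsal sepals.

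The lists from S10 and S12 were also counted feature by feature. Of the 96 petal-high features 60 were tested at S16, and edgeR called 15 of these higher (25%, against 2.29% of all features tested) and 0 lower (against 4.16%) in dorsal petals, with a median of 2.66 (29 and 1 at an unadjusted p under 0.05, 21 and 1 by DESeq2). Without replicate 3 they were 39 (65%, against 16.8%) and 4 (6.67%, against 19.4%) with a median of 2.35. Of the 761 sepal-high features 718 were tested, with 12 higher (1.67%, against 2.29%), 273 lower (38%, against 4.16%) and a median of -2.36. Without replicate 3, 27 were higher (3.77%, against 16.8%) and 586 lower (81.7%, against 19.4%) with a median of -2.47. Among the members tested at S16, 665 of the 718 sepal-high features had a negative sign there, against 45.4% of all features tested. A positive sign was found in 52 of the 60 petal-high features, against 54.6% of all features tested. Members too low at S16 to be tested are not counted, and that filter favours petal-high features still present in petals. The counts are therefore a description of the members tested.

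**Figure D5:**
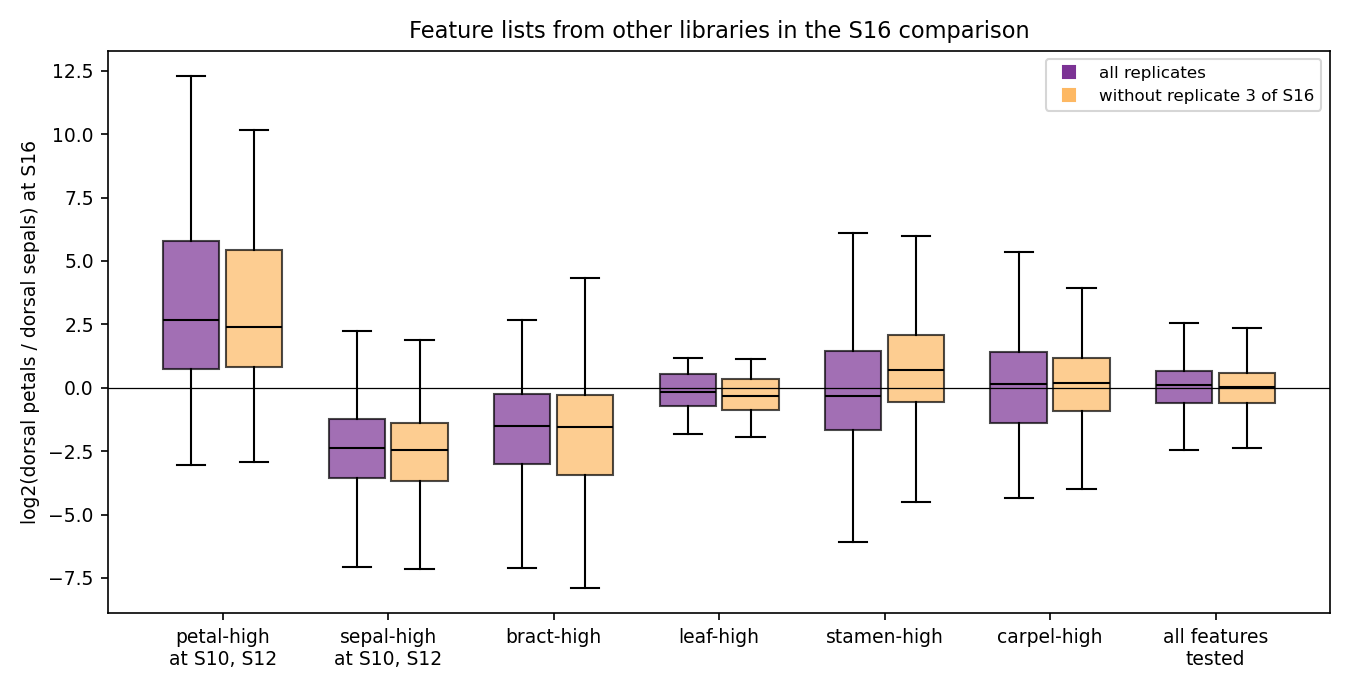
Log2 difference between dorsal petals and dorsal sepals at S16 for features of each list, with all replicates (purple) and without replicate 3 of S16 (orange). Boxes span the quartiles with the median line and whiskers reach 1.5 box lengths; the petal-high box (median 2.66) lies above 0 and the sepal-high (-2.36) and bract-high (-1.52) boxes lie below it, while the stamen-high median turns from -0.33 with replicate 3 to 0.75 without it.

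The organ with the highest level among stamens, carpels, leaves and bracts differed between the sides. Stamens held the highest mean of 250 of the 438 features higher in dorsal petals (57.1%), where they held that of 32.6% of all features tested. Bracts held the highest mean of 385 of the 796 features lower in dorsal petals (48.4%), against 25.2% of all features tested. Without replicate 3 the share for stamens on the petal side was 38.7%, near the 32.6% of all features tested. The share for bracts on the sepal side was then 37%, against 25.2%. Both thus lay nearer the shares of all features than with replicate 3.

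The 19128 features tested came from 17180 assembly genes, 1563 of which had more than 1 feature, and by edgeR 0 of these genes had features called in both directions. At an unadjusted p under 0.05 there were 8 such genes, by DESeq2 3, and by edgeR without replicate 3 there were 49. With counts summed over assembly genes edgeR called 1227 genes between dorsal petals and dorsal sepals, against 1234 features. Near-identical features can share reads that were divided by estimation, and no source used here gives the strandedness, so reads of overlapping genes on opposite strands cannot be told apart.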

How the data were processed

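Total RNA was extracted with a plant RNA kit and sequenced, per the labels' protocols. The authors deposited one file of estimated counts per library, not normalized, in which 93.2 to 99.2% of values are whole numbers. TopHat2 and RSEM are named, per the submitters' processing notes, without version or role, and the sources used here do not give the reference, read filters or strandedness. Samples were grouped by title. The comparisons, features and lists were chosen with earlier results of these data known.

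Rounded estimated counts went into edgeR 4.0.16 under R 4.3.3 (TMM scaling, filterByExpr, robust quasi-likelihood F tests, 1 mean per group), with Benjamini-Hochberg adjustment over all features tested and calls at adjusted p under 0.05. The SE is the log2 fold change divided by the square root of F. With 3 libraries against 3, an exact two-sided permutation test of one value cannot go below p = 0.1, so the fit across features was used. Floors of 3 counts and 95% intervals cover counting error only; 3 counts in 1 of the 15 S16 libraries correspond to 0.136 to 0.53 CPM.

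Named features were chosen by rule. For dorsal petals against dorsal sepals they have adjusted p under 0.05 with and without replicate 3, a mean of at least 10 CPM in the higher organ and no overlap (421 higher and 767 lower qualified), and are the one of largest log2 fold change and the one of highest mean CPM per direction. For each interaction, the largest in each direction was taken among features called with and without replicate 3 and at 10 CPM or more in some group (135 and 656 qualified). Every pair of S16 replicates differed by more than sampling noise (lowest chi-square per feature 10.5).

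Same-numbered libraries deviated together from their group means (correlations 0.25, 0.41 and 0.32 between dorsal petals and dorsal sepals at S16, 0.22 to 0.33 at the lateral position, 0.29 to 0.37 at S12 and 0.11 to 0.31 at S10), so the numbers pair libraries within a stage; the labels do not say what a number marks. Between S12 and S16 the correlations for replicates 1, 2 and 3 were 0.03, 0.15 and 0.29 in dorsal petals and 0.08, 0.27 and 0.24 in dorsal sepals. Some of these lay within the range at S10. Alternatives were DESeq2 1.42.0, RLE scaling, no low-count filter, the replicate block, limma 3.58.1 voom with quality weights, thinned libraries, assembly-gene sums, other sets of libraries and leaving out each library. The scripts were tested on simulated data.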

Additional observations from a re-analysis of the deposited data

Results flagged for a closer look

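The petal-sepal difference at S16 differed between the dorsal and the lateral position in 136 features by an edgeR interaction test. The largest interactions were 9.14 on the log2 scale for DN39758_c0_g2_i1|m.25678 and -5.54 for DN48433_c1_g1_i10|m.116553, calls lost in 8 and 4 of 19 alternatives, each of these leaving out 1 library.

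The dorsal petal-sepal difference differed between S16 and S12 in 877 features by an edgeR interaction test. The largest interactions were 12.49 for DN32998_c0_g1_i1|m.12218 and -11.15 for DN38501_c0_g1_i1|m.22183, both fitted against groups with few or no counts and neither a bound.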

How the results depend on the processing

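Between dorsal petals and dorsal sepals at S16 the count of 1234 moved to 2239 with DESeq2, 2145 in a fit of the 6 libraries alone, 5665 with replicates 1 and 2 of these organs alone, 6461 with voom and quality weights (49.4% higher in petals) and 6889 without replicate 3 of all S16 groups. With the replicate number as a block, which pairs the libraries, it was 2444, the lateral count 1548, the position count 424 and, within each stage, the stage count 1323. Leaving out 1 library gave 750 to 973. The other 6 alternatives stayed within 1.5 times in count, though not always in membership. All petal and sepal libraries in one fit gave 1782 calls, of which 953 were among the 1234. The lateral count of 805 became 1511 with DESeq2, 5617 with voom and 4390 without replicate 3, and 505 to 754 leaving out 1 library. The position count of 136 became 410, 2018 and 1652 under the same settings, and 89 to 128. The stage count of 877 became 1538 with DESeq2 and 3442 with voom, and 579 to 980. Voom gave 5877 calls at S12 and 4952 at S10, and leaving out 1 library 1421 to 2042 and 1104 to 1383. Alternatives for the lateral, S12 and S10 counts were chosen after seeing the data. The cause of these moves was not tested.

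Counts of list members called moved with the list rule, which also changes the size of a list, and with replicate 3. Over all features tested 6.45% were called, and 36.2% without replicate 3. Bract-high calls were 16 of 35 tested at 8-fold and 50 of 66 without replicate 3, against 31 of 66. Stamen-high calls were 43 of 313 at 8-fold and 146 of 1051 from S16 lists (77 higher and 69 lower). Without replicate 3 they were 277 of 494, against 74 of 516. Carpel-high calls under these settings were 2 of 25, 16 of 137 and 37 of 94, against 4 of 94. Leaf-high calls were 0 of 1, 2 of 21 and 10 of 25, against 1 of 25. No named feature changed direction under an alternative run. The fits rest on 3 libraries a group, the dorsal sepal libraries were the shallower, and with all replicates features under 10 CPM were rarely called.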
